A study of Homo sapiens with 24 samples.

Results

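The mitochondrial ribosomal proteins were taken as all gene symbols that read MRPL (large subunit) or MRPS (small subunit) followed by a number and an optional letter A, B or C, and that reached at least 1 CPM (the count scaled to the library's size) in 4 or more libraries. Of 25728 symbols in the files 77 fitted that pattern, 48 MRPL and 29 MRPS, and all 77 passed the threshold. MRPS24 was the nearest to it, at 1 CPM or more in 11 of the 24 libraries and between 0.324 and 1.85 CPM, and no symbol lay just outside. The 4 other MRPL- or MRPS-like symbols, MRPL23-AS1, MRPS31P5, MRPL42P5 and MRPL45P2, are an antisense RNA and pseudogenes and were left out. All 77 members were among the 14588 genes tested.

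The study set cyclocreatine, a creatine analog that creatine kinases can phosphorylate, against vehicle in 3 human leukemia cell lines that the series describes as driven by EVI1. TF-1 is an erythroleukemia line, UT-7 a megakaryoblastic line and UCSD-AML1 a myeloid leukemia line. The 6 groups were cyclocreatine (3 mM, 24 h) and vehicle (24 h) in each of the lines, with 4 libraries per group, and the labels name no engineered allele. Each leukemia is represented by 1 line. The labels call the libraries quadruplicates without telling separate cultures from repeats of one, so a p-value reflects only the spread among these libraries, and that spread may be technical.

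Mitochondria hold their own ribosome, which translates the few membrane proteins of the respiratory chain and ATP synthase that mitochondrial DNA encodes. Its rRNAs come from mitochondrial DNA, but all of its proteins are encoded in the nucleus, made in the cytosol and imported. Some have counterparts in the bacterial ribosome, and others were added in the mitochondrial lineage and occur in no bacterial ribosome. Mitochondrially encoded transcripts were not analysed here.

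Upstream sequences are shown for the 3 members with the largest mean rise over the lines among those with a RefSeq entry (MRPL53, MRPL54 and MRPS15) and for MRPL50, the member that was lower in all 3 lines. Each is the stretch of 150 bases before the annotated start in RefSeq's GRCh38.p14, read 5′ to 3′ on the gene's own strand. Their positions are chr2:74472681-74472830 (minus strand), chr19:3762532-3762681 (plus), chr1:36464385-36464534 (minus) and chr9:101398619-101398768 (minus). Capitals mark CCGGAAG or its reverse complement CTTCCGG, the core bound by the ETS family of transcription factors.
MRPL53: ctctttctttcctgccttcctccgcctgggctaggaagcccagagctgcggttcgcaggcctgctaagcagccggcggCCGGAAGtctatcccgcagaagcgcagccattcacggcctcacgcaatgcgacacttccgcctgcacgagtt
MRPL54: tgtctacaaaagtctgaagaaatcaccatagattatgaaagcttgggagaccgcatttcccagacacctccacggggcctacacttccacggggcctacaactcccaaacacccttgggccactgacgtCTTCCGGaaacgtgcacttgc
MRPS15: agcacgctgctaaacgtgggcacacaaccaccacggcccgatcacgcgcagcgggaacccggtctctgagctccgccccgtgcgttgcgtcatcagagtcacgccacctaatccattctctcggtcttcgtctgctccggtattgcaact
MRPL50: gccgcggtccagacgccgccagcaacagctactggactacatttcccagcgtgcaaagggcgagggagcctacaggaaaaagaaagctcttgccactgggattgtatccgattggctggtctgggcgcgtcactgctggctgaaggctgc

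RefSeq windows from 250 bases before to 50 after the start were at hand for 68 of the 77 members. On either strand, 28 of these 68 windows (41.2%) held CCGGAAG, against 18.4% of the windows of all genes tested and 10.7% of all windows. AAGATGGC, the YY1 motif, stood in 29.4% of the member windows, against 5.24% of those of genes tested and 3.03% of all. The E-box CACGTG stood in 8.82%, against 9.99% of those of genes tested, the NRF1 motif in 1.47% against 2.24%, the GC box GGGCGG in 60.3% against 68.4%, and TATAAA in 2.94% against 5.86%. In TF-1, CCGGAAG stood in 41.5% of the windows of members higher with cyclocreatine. It stood in 0% of those of members lower, which were at most 6 windows. For members not called the share was 50%, with no test between these. These are matches of letters, not sites, and MRPS15 and MRPL50 held none of the CCGGAAG kind in their windows.

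Library totals ran from 12794998 to 21200662 counts, and the members held 0.433% to 0.607% of a library. In vehicle cells 13 of 13 erythroid markers reached 1 CPM in TF-1 and likewise 13 in UT-7, but 3 in UCSD-AML1, where HBB and ALAS2 were among those at 0. Megakaryocyte markers reached 1 CPM for 6, 5 and 8 of 9 in these lines, and myeloid and progenitor markers for 9, 7 and 9 of 13, among them CD34 at 238 CPM in TF-1 and 593 CPM in UCSD-AML1. Lymphoid markers reached it for 4, 2 and 4 of 10, led by CD79B at 9.66, 2.86 and 38.4 CPM, with MS4A1 at 0 in each line, and stromal and epithelial markers for 0, 1 and 2 of 10. Summed erythroid marker levels were 4310 to 4524 CPM in cyclocreatine TF-1 cells against 7108 to 7541 CPM in vehicle cells, 4054 to 4390 against 5811 to 5929 CPM in UT-7, and 353 to 372 against 568 to 599.7 CPM in UCSD-AML1. The transferrin receptor gene TFRC was the highest of these markers, at a mean of 5220, 3627 and 589 CPM in vehicle cells of the 3 lines, so the UCSD-AML1 sum is nearly that gene alone. Summed megakaryocyte marker levels were 1019 to 1109 CPM in cyclocreatine TF-1 cells against 738 to 775 CPM in vehicle cells, 1102 to 1130 against 909 to 951 CPM in UT-7, and 1075 to 1099 against 1436 to 1553 CPM in UCSD-AML1. The integrin gene ITGA2B was the highest of them, at 566.9, 929.7 and 593.9 CPM in vehicle cells, and made up nearly all of the UT-7 sum. Levels of single marker genes used library totals and the sums TMM-scaled totals, so these are not on quite the same scale. Myeloid and progenitor markers summed to 860.7 to 874.0 CPM with cyclocreatine against 785.0 to 802.1 CPM with vehicle in TF-1 cells, 1017 to 1048 against 1206 to 1239 CPM in UT-7, and 1805 to 1837 against 1771 to 1854 CPM in UCSD-AML1. Lymphoid markers summed to 16.8 to 25.4 against 16.6 to 19.6 CPM in TF-1, 4.97 to 6.89 against 4.83 to 5.59 CPM in UT-7, and 93.4 to 93.9 against 76.3 to 83.7 CPM in UCSD-AML1. Stromal and epithelial markers summed to 3.07 to 3.94 against 1.88 to 3.23 CPM in TF-1, 17.1 to 20.3 against 20.9 to 23.5 CPM in UT-7, and 61.1 to 67.1 against 69.0 to 75.4 CPM in UCSD-AML1. Their part in the results on the members was not tested, and in such bulk samples fewer cells of a kind and less RNA per cell cannot be told apart. One library stood apart: TF-1 cyclocreatine replicate 1 lay at 38.3 on the second principal component of its line, against -20.6 to -10.5 for the other 3 treated libraries, and cytosolic ribosomal protein genes held 10.3% of its counts, against 8.47% to 8.53% in those. The main TF-1 counts and the TF-1 changes of many named genes are therefore also given without it.

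In TF-1, 48 of 77 rose with cyclocreatine and 6 fell (edgeR's quasi-likelihood test, Benjamini-Hochberg adjusted p under 0.05 over all genes), beside 56.0% of all genes called, 26.7% higher and 29.3% lower. Their middle log2 fold change was 0.20, with all genes at -0.01. Without replicate 1 of cyclocreatine 42 rose and 9 fell, their middle value was 0.14, and 56.9% of all genes were called, 27.3% higher and 29.6% lower. With library totals in place of TMM scaling 34 rose and 9 fell, with a middle value of 0.12 and all genes at -0.087.

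In UT-7, 12 members rose and 18 fell, beside 45.9% of all genes called, 22.5% higher and 23.3% lower, and the median was 0.00. With library totals the split in UT-7 was 11 higher and 26 lower. In UCSD-AML1, 20 rose and 9 fell, beside 40.5% of all genes called, 19.1% higher and 21.3% lower, with a median of 0.05. After removal of a per-library trend on GC content the split there was 21 higher and 3 lower. Set against the shares of all genes above, 62.3% of the members were higher and 7.79% lower in TF-1, 15.6% and 23.4% in UT-7, and 26% and 11.7% in UCSD-AML1.

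**Figure D1:**
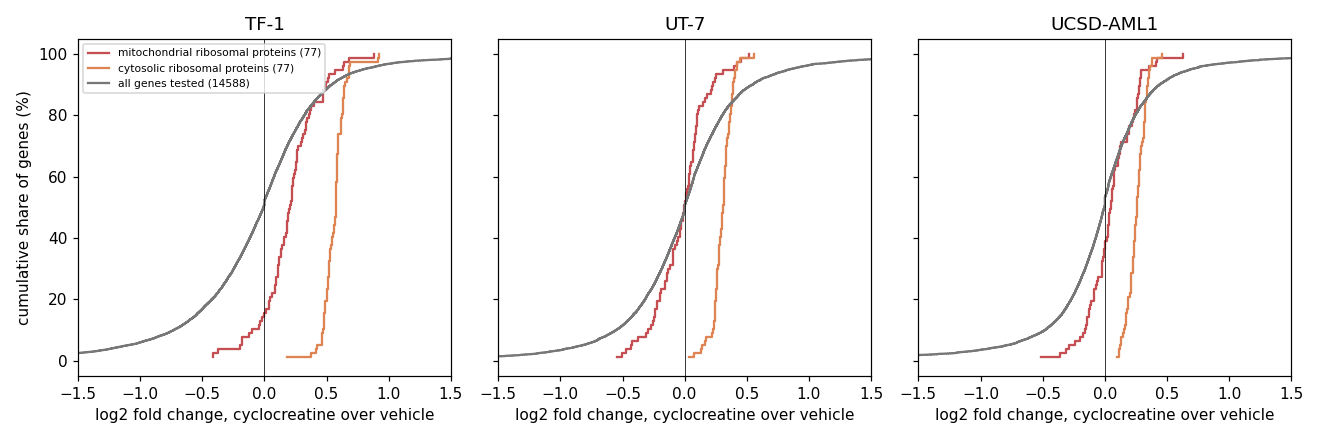
Cumulative share of genes (y axis, %) by log2 fold change of cyclocreatine over vehicle (x axis) in each line, for the 77 mitochondrial ribosomal proteins, the 77 tested cytosolic ribosomal proteins and all 14588 genes tested. The mitochondrial curve crosses its middle at 0.20 in TF-1 and at 0.00 in UT-7, left of the cytosolic curve (0.57 and 0.31) in both.

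Sizes were small throughout. The median size among called members was 0.26 on the log2 scale in each line, the largest fold was 1.84 for TF-1, 1.46 for UT-7 and 1.55 for UCSD-AML1, and 0 called members reached a log2 size of 1 in any line. The median SE was 0.06. In TF-1, 32 of the members called higher and 4 of those called lower had treated and vehicle libraries that did not overlap, where 19.0% and 20.7% of all genes were called in that direction with groups apart. The matching counts were 33 and 6 in TF-1 without cyclocreatine replicate 1 (22.6% and 23.7% of all genes), 10 and 16 in UT-7 (20.4% and 21.5%) and 20 and 8 in UCSD-AML1 (17.7% and 19.6%).

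Added up over the 48 MRPL symbols, the level was 4264, 3616, 3646 and 3513 CPM in cyclocreatine TF-1 cells, against 3192, 3332, 3283 and 3191 CPM in vehicle cells. The 29 MRPS symbols summed to 2379, 2121, 2101 and 2034 CPM with cyclocreatine, against 1814, 1905, 1899 and 1887 CPM with vehicle. Every treated TF-1 library lay above every vehicle library for both sums, and replicate 1 was the highest. The sum of all members averaged 5517 ± 141 CPM in cyclocreatine UT-7 cells and 5582 ± 59.5 CPM in vehicle cells, which overlapped. In UCSD-AML1 it averaged 4556 ± 77.7 CPM with cyclocreatine and 4365 ± 52.9 CPM with vehicle (SD, n = 4 each), without overlap. The log2 ratio of the summed level was 0.21 in TF-1, 0.15 without replicate 1 and 0.13 with library totals. It was -0.02 in UT-7 and 0.06 in UCSD-AML1.

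**Figure D2:**
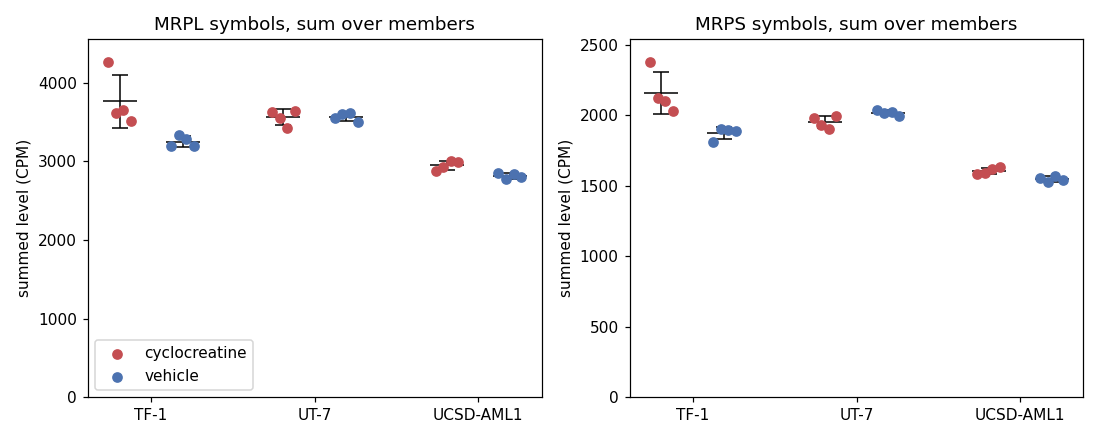
Summed level of the MRPL symbols (left) and MRPS symbols (right) in CPM in each library, with cyclocreatine libraries in red left of vehicle libraries in blue. Bars are the mean and SD of 4 libraries, and TF-1 cyclocreatine replicate 1 is the highest point of both panels (4264 and 2379 CPM).

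By role, the large subunit proteins with bacterial counterparts had 20 higher and 2 lower of 29 in TF-1 (middle log2 fold change 0.23), and the mitochondria-specific large subunit proteins 12 higher and 4 lower of 21, with a median of 0.19. In the small subunit, 8 of 16 proteins with bacterial counterparts and 7 of 10 mitochondria-specific ones were higher, 0 in each were lower, and the medians were 0.15 and 0.21. Of all genes 26.7% were higher and 29.3% lower there. Without replicate 1 the counts in the same order were 16 and 3, 11 and 4, 7 and 1, and 7 and 1, with medians of 0.14, 0.15, 0.08 and 0.15. MRPS18A and MRPS30, which bear small subunit symbols but sit in the large subunit, were counted there. MRPS18A and MRPS18B were counted as mitochondria-specific, although they are versions of a bacterial protein.

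In UT-7, where 22.5% of all genes were higher and 23.3% lower, the mitochondria-specific small subunit proteins had 0 higher and 4 lower of 10, their counterparts with bacterial homologs 3 and 3 of 16, the large subunit proteins with bacterial homologs 6 and 5 of 29, and the mitochondria-specific ones 3 and 6 of 21. In UCSD-AML1 these counts were 2 and 2, 5 and 2, 8 and 3, and 5 and 2, with 19.1% of all genes higher and 21.3% lower. No test of one class against another was made. Over the 3 lines 66 members were called in at least 1, where 76.4% of all genes were, and 11 in none, among them MRPL2, MRPL24, MRPL33, MRPS11, MRPS14 and MRPS18C.

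**Figure D3:**
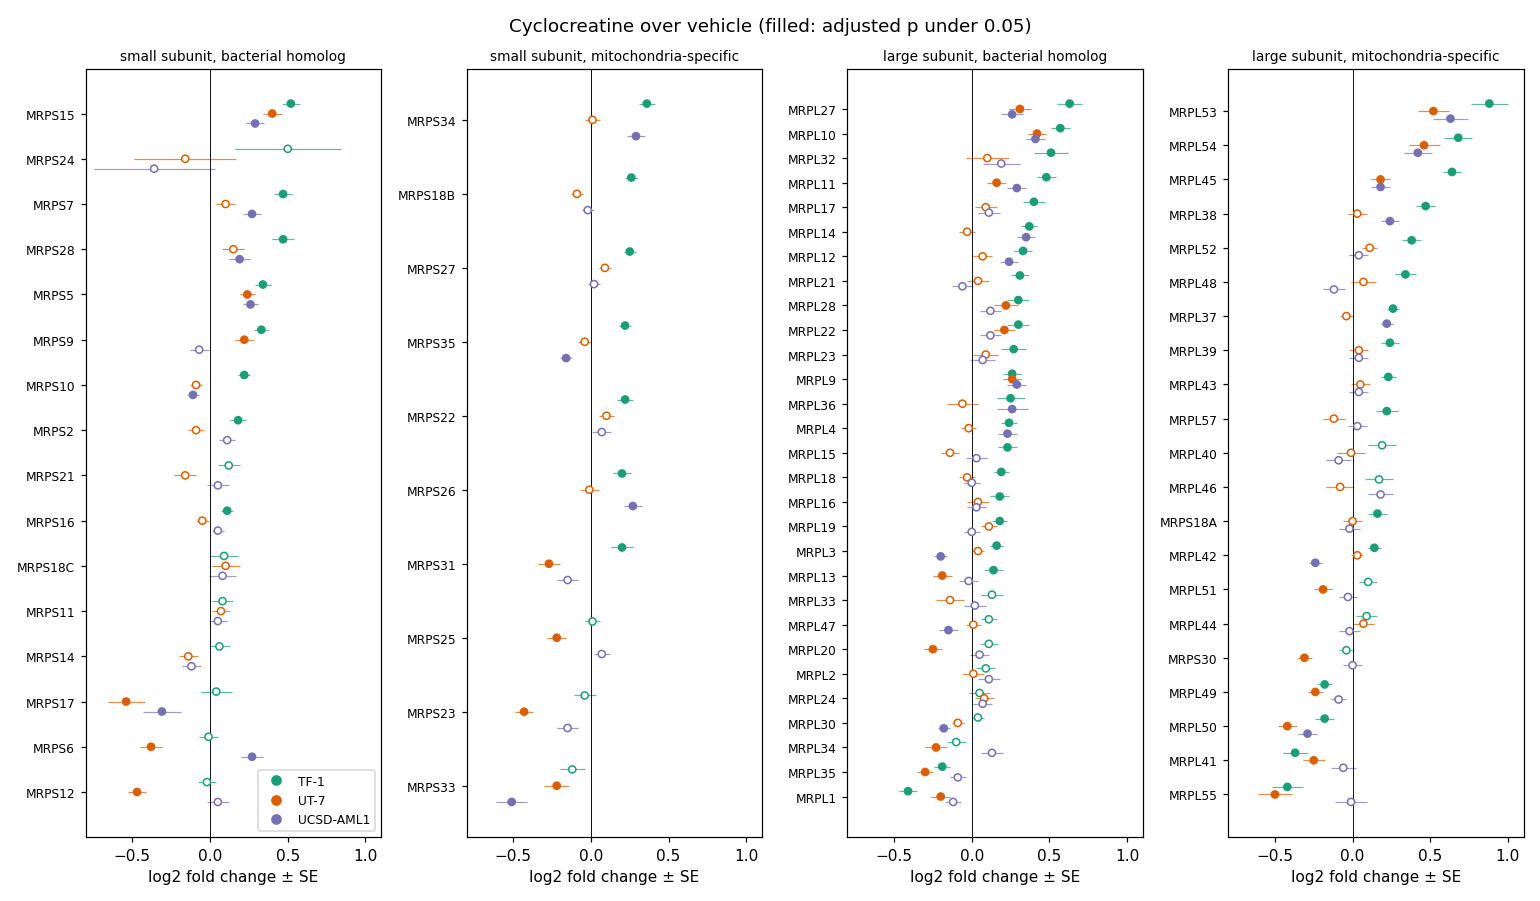
Log2 fold change of cyclocreatine over vehicle with its SE (x axis) for 76 members in 4 classes by subunit and origin, ordered by the TF-1 value, with 1 colour per line and filled points for adjusted p under 0.05. MRPS36, which belongs to no class, is not drawn. Most TF-1 points lie right of 0, and MRPL53 (0.88) is the farthest right.

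Higher with cyclocreatine in all 3 lines were 9 members, MRPL53, MRPL54, MRPL10, MRPS15, MRPL27, MRPL45, MRPL9, MRPL11 and MRPS5, or 9 of 77 where 8.76% of all genes were. MRPL53, a mitochondria-specific large subunit protein, had the largest rise. It stood at 29.1, 19.98, 20.4 and 17.9 CPM in the 4 cyclocreatine libraries of TF-1, against 13.7, 11.5, 11.8 and 10.2 CPM in its 4 vehicle libraries (log2 fold change 0.88 ± 0.12 (SE), adjusted p = 7.64e-08 by edgeR). It stood at 37.1, 30.7, 29.4 and 34.5 CPM in the 4 cyclocreatine libraries of UT-7, against 23.1, 21.7, 24.9 and 22.1 CPM in its 4 vehicle libraries (log2 fold change 0.52 ± 0.10 (SE), adjusted p = 1.04e-04 by edgeR). In UCSD-AML1 the values were 24.1, 28.5, 30.03 and 29.6 CPM with cyclocreatine and 19.1, 18.1, 18.1 and 17.1 CPM with vehicle (log2 fold change 0.63 ± 0.11 (SE), adjusted p = 1.25e-05 by edgeR). The groups were apart in each line, and the TF-1 value without replicate 1 was 0.71.

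MRPL54, also mitochondria-specific, had 44.1, 29.7, 28.2 and 31.8 CPM in the 4 cyclocreatine libraries of TF-1, against 21.3, 20.5, 18.5 and 23.4 CPM in its 4 vehicle libraries (log2 fold change 0.68 ± 0.09 (SE), adjusted p = 1.35e-07 by edgeR). Replicate 1 was far above the other treated libraries, and without it the change was 0.52. It had 25.98, 26.9, 22.99 and 26.6 CPM in the 4 cyclocreatine libraries of UT-7, against 18.8, 19.2, 18.96 and 17.5 CPM in its 4 vehicle libraries (log2 fold change 0.46 ± 0.10). In UCSD-AML1 it had 39.9, 43.9, 42.8 and 44.9 CPM with cyclocreatine, against 33.5, 29.96, 31.6 and 33.2 CPM with vehicle (log2 fold change 0.42 ± 0.09). No treated library reached down to a vehicle library in any line.

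MRPL10, which anchors the flexible stalk that recruits translation factors, had 90.01, 81.4, 84.5 and 71.7 CPM in the 4 cyclocreatine libraries of TF-1, against 56.3, 52.5, 55.3 and 56.4 CPM in its 4 vehicle libraries (log2 fold change 0.57 ± 0.06 (SE), adjusted p = 4.84e-11 by edgeR). It had 67.3, 62.7, 62.2 and 64.5 CPM in the 4 cyclocreatine libraries of UT-7, against 49.03, 46.8, 47.6 and 47.9 CPM in its 4 vehicle libraries (log2 fold change 0.42 ± 0.06 (SE), adjusted p = 1.55e-07 by edgeR). In UCSD-AML1 it had 71.2, 75.2, 78.5 and 73.8 CPM with cyclocreatine, against 61.0, 57.2, 50.7 and 55.7 CPM with vehicle (log2 fold change 0.41 ± 0.06 (SE), adjusted p = 1.99e-07 by edgeR). Treated and vehicle libraries were apart in each line, and the TF-1 change without replicate 1 was 0.52. MRPL12, which forms the stalk itself and also binds the mitochondrial RNA polymerase, averaged 162 ± 24.1 CPM in cyclocreatine TF-1 cells and 129 ± 4.68 CPM in vehicle cells, and 136 ± 4.03 CPM in cyclocreatine UCSD-AML1 cells and 115 ± 1.95 CPM in vehicle cells. It was called in TF-1 (0.33 ± 0.06) and UCSD-AML1 (0.24 ± 0.06), and in UT-7 the change was 0.07 ± 0.06 (adjusted p = 0.369 by edgeR). MRPL11, at the base of the stalk, had changes of 0.48 in TF-1, 0.16 in UT-7, and for UCSD-AML1 0.29. Its UT-7 call was lost under 7 alternatives (adjusted p = 0.0503 to 0.0794 by edgeR), 6 of which left out 1 UT-7 library and 1 of which used library totals. Without replicate 1 the TF-1 changes were 0.22 for MRPL12, which is over 1.5 times smaller, and 0.41 for MRPL11.

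MRPS15, the counterpart of bacterial S15, an early binder of small subunit rRNA, had 146, 119.8, 121 and 108 CPM in the 4 cyclocreatine libraries of TF-1, against 81.2, 89.6, 87.95 and 85.8 CPM in its 4 vehicle libraries (log2 fold change 0.52 ± 0.06 (SE), adjusted p = 1.26e-09 by edgeR). It had 153, 149, 138 and 160.0 CPM in the 4 cyclocreatine libraries of UT-7, against 112, 111, 118 and 115 CPM in its 4 vehicle libraries (log2 fold change 0.40 ± 0.06 (SE), adjusted p = 3.87e-07 by edgeR). In UCSD-AML1 it had 77.8, 77.1, 79.4 and 83.1 CPM with cyclocreatine, against 67.03, 64.9, 64.5 and 63.7 CPM with vehicle (log2 fold change 0.29 ± 0.06 (SE), adjusted p = 2.06e-04 by edgeR). It was the small subunit member with the largest called rise in TF-1, 0.43 without replicate 1. MRPS5, the other small subunit protein higher in every line, had log2 fold changes of 0.34 in TF-1, 0.24 in UT-7, and for UCSD-AML1 0.26, and 0.28 in TF-1 without replicate 1.

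MRPL27, whose bacterial counterpart reaches the peptidyl transferase centre, averaged 36.8 ± 5.07 CPM in cyclocreatine TF-1 cells and 23.7 ± 2.02 CPM in vehicle cells (log2 fold change 0.63 ± 0.08 (SE), adjusted p = 5.78e-09 by edgeR). It averaged 42.1 ± 3.28 CPM in cyclocreatine UT-7 cells and 33.95 ± 1.24 CPM in vehicle cells (0.31 ± 0.07), and 37.4 ± 1.7 CPM in cyclocreatine UCSD-AML1 cells and 31.3 ± 1.01 CPM in vehicle cells (0.26 ± 0.07). MRPL45, which lies at the exit of the peptide tunnel and holds the ribosome to the inner membrane, had 107, 80.2, 86.98 and 84.5 CPM in the 4 cyclocreatine libraries of TF-1, against 52.9, 58.1, 60.3 and 58.5 CPM in its 4 vehicle libraries (log2 fold change 0.64 ± 0.06 (SE), adjusted p = 8.18e-12 by edgeR). Its rises in UT-7 (0.18 ± 0.06, adjusted p = 0.0164 by edgeR) and UCSD-AML1 (0.18 ± 0.06, adjusted p = 0.0139) were smaller. Without replicate 1 the TF-1 changes were 0.56 for MRPL27 and 0.55 for MRPL45. MRPL9 had changes of 0.26 in TF-1, 0.26 in UT-7, and for UCSD-AML1 0.29, and 0.18 in TF-1 without replicate 1.

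**Figure D4:**
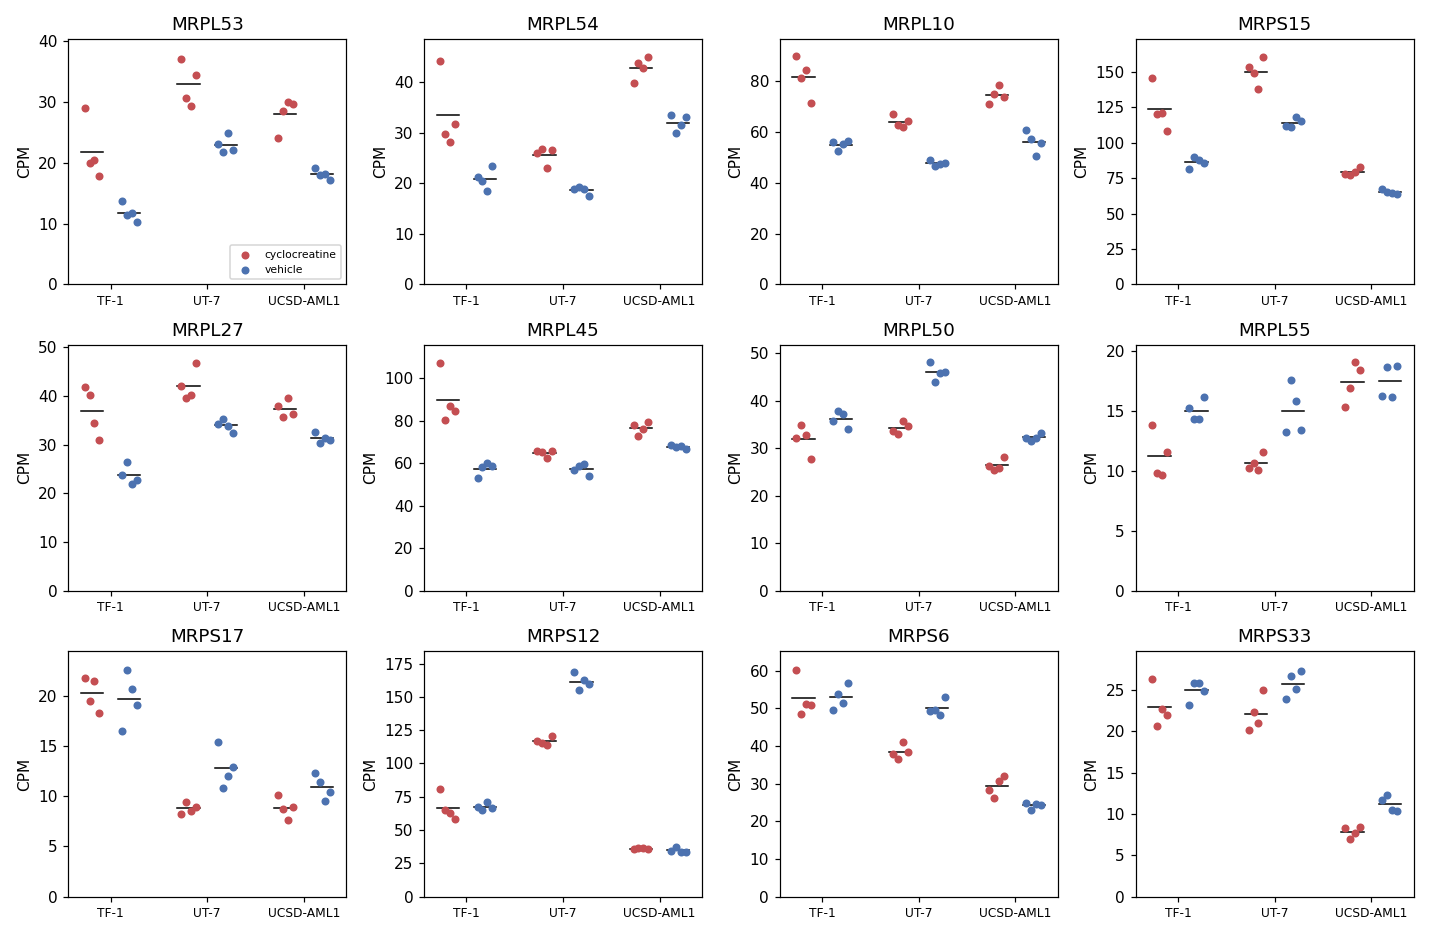
Level in CPM (y axis) of 12 members in every library, with cyclocreatine libraries in red left of vehicle libraries in blue and a line at the mean of 4. MRPL53, MRPL54, MRPL10, MRPS15, MRPL27 and MRPL45 are higher with cyclocreatine in each line, MRPL50 lower, and MRPS12, MRPS17 and MRPS6 have groups apart in UT-7.

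With all libraries, MRPL50 alone was lower in all 3 lines, 1 of 77 where 8.97% of all genes were. This mitochondria-specific large subunit protein had 33.7, 33.1, 35.8 and 34.6 CPM in the 4 cyclocreatine libraries of UT-7, against 48.1, 43.99, 45.9 and 46.1 CPM in its 4 vehicle libraries (log2 fold change -0.42 ± 0.06 (SE), adjusted p = 2.88e-07 by edgeR). In UCSD-AML1 it had 26.2, 25.4, 25.8 and 28.1 CPM with cyclocreatine, against 32.2, 31.5, 32.2 and 33.1 CPM with vehicle (log2 fold change -0.29 ± 0.06 (SE), adjusted p = 2.72e-04 by edgeR). In TF-1 the values were 32.2, 34.9, 32.8 and 27.8 CPM with cyclocreatine and 35.6, 37.8, 37.1 and 34.1 CPM with vehicle, which overlapped (log2 fold change -0.18 ± 0.06 (SE), adjusted p = 0.0101 by edgeR). The TF-1 call was lost without cyclocreatine replicate 4, with TF-1 fitted alone and after removal of the length or GC trend, and that in UCSD-AML1 after removal of the GC trend. Without replicate 1 the TF-1 change was -0.19. MRPS33, called lower in UT-7 and UCSD-AML1, was called lower in TF-1 too without TF-1 cyclocreatine replicate 1 (-0.20, adjusted p = 0.0291 by edgeR). With that library left out it was thus lower in all 3 lines as well.

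MRPL55, MRPL1, MRPL35, MRPL41 and MRPL49 were called lower in both TF-1 and UT-7. MRPL55, mitochondria-specific, had 13.8, 9.78, 9.63 and 11.6 CPM in the 4 cyclocreatine libraries of TF-1, against 15.3, 14.3, 14.3 and 16.2 CPM in its 4 vehicle libraries (log2 fold change -0.42 ± 0.10 (SE), adjusted p = 8.67e-04 by edgeR). It had 10.2, 10.6, 10.1 and 11.6 CPM in the 4 cyclocreatine libraries of UT-7, against 13.2, 17.6, 15.9 and 13.4 CPM in its 4 vehicle libraries (log2 fold change -0.50 ± 0.11 (SE), adjusted p = 2.23e-04 by edgeR). In UCSD-AML1 its change was -0.01 ± 0.10, and the groups overlapped. MRPL1, whose bacterial counterpart forms the mobile stalk on the side where spent tRNA leaves, averaged 38.1 ± 2.34 CPM in cyclocreatine TF-1 cells and 50.8 ± 3.04 CPM in vehicle cells (log2 fold change -0.41 ± 0.06 (SE), adjusted p = 1.25e-07 by edgeR). MRPL35 averaged 60.2 ± 2.03 CPM in cyclocreatine TF-1 cells and 68.8 ± 3.16 CPM in vehicle cells (-0.19 ± 0.05) and MRPL49 63.4 ± 3.57 CPM in cyclocreatine TF-1 cells and 71.7 ± 2.35 CPM in vehicle cells (-0.18 ± 0.05). For MRPL1, MRPL35 and MRPL49 the groups were apart in TF-1, and without replicate 1 the changes were -0.41, -0.19 and -0.19. For MRPL55 and MRPL41 they were -0.53 and -0.51.

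MRPS17, MRPS12, MRPS23 and MRPS6, all of the small subunit, were among the 6 largest falls of UT-7, beside MRPL55 and MRPL50. MRPS17, the counterpart of bacterial S17, had 8.28, 9.403, 8.57 and 8.88 CPM in the 4 cyclocreatine libraries of UT-7, against 15.4, 10.8, 12.1 and 12.9 CPM in its 4 vehicle libraries (log2 fold change -0.54 ± 0.12 (SE), adjusted p = 1.97e-04 by edgeR). MRPS12, the counterpart of S12 in the decoding centre, had 117, 115, 114 and 120.4 CPM in the 4 cyclocreatine libraries of UT-7, against 169, 155, 162 and 159.6 CPM in its 4 vehicle libraries (log2 fold change -0.47 ± 0.06 (SE), adjusted p = 7.22e-09 by edgeR). The mitochondria-specific MRPS23 averaged 57.5 ± 2.78 CPM in cyclocreatine UT-7 cells and 77.6 ± 3.03 CPM in vehicle cells (log2 fold change -0.43 ± 0.06 (SE), adjusted p = 6.61e-07 by edgeR). These 3 had groups apart, as did MRPS6. MRPS6 had 37.99, 36.5, 41.0 and 38.4 CPM in the 4 cyclocreatine libraries of UT-7, against 49.2, 49.6, 48.3 and 53.0 CPM in its 4 vehicle libraries (log2 fold change -0.38 ± 0.07 (SE), adjusted p = 7.85e-06 by edgeR). In TF-1 the changes were 0.04 ± 0.10 for MRPS17, -0.02 ± 0.06 for MRPS12, -0.04 ± 0.07 for MRPS23 and -0.01 ± 0.06 for MRPS6, and 0 of these passed the test there. Without replicate 1 they were 0.00, -0.12, -0.12 and -0.08, and that of MRPS12 passed (adjusted p = 0.0213 by edgeR). In UCSD-AML1, MRPS17 was called lower as well, with overlapping groups. Its levels there were 7.62 to 10.1 CPM with cyclocreatine and 9.51 to 12.3 CPM with vehicle. MRPS6 was called higher in UCSD-AML1, and MRPS12 and MRPS23 were not called.

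Some of these genes share exon bases with a neighbour, and whether the counting used strand is not stated in the labels, so their levels are uncertain. Of MRPS6's exon bases 17.8% overlap SLC5A3, the myo-inositol transporter gene, on the same strand. SLC5A3 rose by 0.34 on the log2 scale in TF-1, 0.77 in UT-7, and by 1.20 in UCSD-AML1. Of MRPS12's exon bases 21.5% overlap SARS2, the mitochondrial seryl-tRNA synthetase gene, on the opposite strand, and SARS2 rose by 0.69, 0.50 and 0.52 in these lines. In UT-7, MRPS12 (-0.47) and MRPS6 (-0.38) fell while their neighbours rose. In UCSD-AML1, MRPS6 (0.27) rose along with SLC5A3, and MRPS12 had 0.05. The part of the shared bases in these changes was not tested. In all, 21 members share exon bases with another gene of the files, 17 on opposite strands and 4 on the same one. Among them were MRPS18A with RSPH9 (56.9%), MRPL51 with NCAPD2 (29.9%), MRPL43 with SEMA4G (25.3%), MRPL9 with OAZ3 (18.7%) and MRPS24 with URGCP-MRPS24 (77%). RSPH9 and URGCP-MRPS24 had too few counts to be among the genes tested. Group means were 0.503 to 1.75 CPM for OAZ3, 1.46 to 9.93 CPM for SEMA4G and 210 to 237 CPM for NCAPD2. MRPL45, MRPS31 and MRPL42 have pseudogene copies among the symbols, which reached at most 2.46 CPM (MRPL45P2), 9.40 CPM (MRPS31P5) and 0.728 CPM (MRPL42P5) in a library.

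In UCSD-AML1 the largest fall was that of MRPS33, mitochondria-specific, with 8.31, 7.03, 7.75 and 8.47 CPM with cyclocreatine, against 11.7, 12.3, 10.5 and 10.4 CPM with vehicle (log2 fold change -0.51 ± 0.10 (SE), adjusted p = 8.08e-05 by edgeR). MRPL42 averaged 70.8 ± 2.94 CPM in cyclocreatine UCSD-AML1 cells and 83.8 ± 2.73 CPM in vehicle cells (log2 fold change -0.24 ± 0.04 (SE), adjusted p = 3.09e-05 by edgeR). MRPL3, whose bacterial counterpart lies by the peptidyl transferase centre, averaged 147 ± 4.87 CPM in cyclocreatine UCSD-AML1 cells and 169 ± 3.38 CPM in vehicle cells (log2 fold change -0.20 ± 0.04 (SE), adjusted p = 4.46e-05 by edgeR). The groups were apart for each, as for MRPL30 (-0.18 ± 0.04) and MRPS35 (-0.16 ± 0.04). The calls of MRPL42, MRPL30 and MRPS35 were lost after removal of the GC trend (adjusted p = 0.093, 0.131 and 0.414 by edgeR).

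Besides the members higher in each line, MRPL14 and MRPS34 led the rises of UCSD-AML1. MRPL14, whose bacterial counterpart sits at the face where the subunits join, had 42.02, 47.6, 46.3 and 43.7 CPM with cyclocreatine, against 34.9, 34.8, 35.4 and 35.5 CPM with vehicle (log2 fold change 0.35 ± 0.06 (SE), adjusted p = 3.81e-06 by edgeR). MRPS34 averaged 81.4 ± 4.23 CPM in cyclocreatine UCSD-AML1 cells and 66.4 ± 0.752 CPM in vehicle cells (log2 fold change 0.29 ± 0.06 (SE), adjusted p = 5.62e-05 by edgeR). Both were higher in TF-1 too (0.37 and 0.36, and 0.29 and 0.28 without replicate 1), and in UT-7 their changes were -0.03 ± 0.05 and 0.01 ± 0.05. A set of 7 members was called in opposite directions in a pair of lines, 7 of 77 where 6.65% of all genes were. MRPL3, MRPL42, MRPS10 and MRPS35 were higher in TF-1 and lower in UCSD-AML1, MRPL13 and MRPS31 higher in TF-1 and lower in UT-7, and MRPS6 lower in UT-7 and higher in UCSD-AML1. Without TF-1 cyclocreatine replicate 1 the TF-1 call of MRPL13 was lost (adjusted p = 0.249 by edgeR). The TF-1 calls of MRPL3 (0.16), MRPL42 (0.15), MRPS10 (0.21), MRPS35 (0.21) and MRPS31 (0.15, adjusted p = 0.0467) were kept.

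The difference between lines in the change was tested itself. The cyclocreatine change was higher in TF-1 than in UT-7 for 36 members and lower for 1, beside 27.5% of all genes called, 14.3% higher and 13.2% lower. It was higher in TF-1 than in UCSD-AML1 for 20 and lower for 4, beside 29.1% of all genes, 14.8% higher and 14.3% lower. Between UT-7 and UCSD-AML1 it was higher in UT-7 for 3 and lower for 15, beside 23.0% of all genes, 11.5% in each direction. The median differences were 0.24, 0.17 and -0.07 on the log2 scale. Without TF-1 cyclocreatine replicate 1 the medians against UT-7 and UCSD-AML1 were 0.17 and 0.09, and with library totals the 3 medians were 0.19, 0.10 and -0.10. Each pair of these comparisons shares the libraries of a line. Without TF-1 cyclocreatine replicate 1 the counts were 32 and 2 against UT-7 (29.2% of all genes, 15.1% higher and 14.1% lower) and 18 and 5 against UCSD-AML1 (33.6%, 17.4% higher and 16.3% lower). With library totals the split against UCSD-AML1 was 13 higher and 6 lower, and with the GC trend removed 33 and 2. With UT-7 and UCSD-AML1 fitted alone, 6 were higher in UT-7 and 25 lower.

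Between TF-1 and UT-7 the largest called differences were those of MRPS17 (0.58 ± 0.15, adjusted p = 0.00385 by edgeR), MRPS31 (0.47 ± 0.10, 3.01e-04), MRPL45 (0.46 ± 0.09, 7.28e-05) and MRPS12 (0.45 ± 0.08, 6.27e-05). MRPS31, mitochondria-specific, averaged 33.8 ± 2.45 CPM in cyclocreatine TF-1 cells and 29.3 ± 1.67 CPM in vehicle cells, and 23.3 ± 1.49 CPM in cyclocreatine UT-7 cells and 28.1 ± 2.12 CPM in vehicle cells. Between TF-1 and UCSD-AML1 they were MRPL48 (0.47 ± 0.10, adjusted p = 4.04e-04 by edgeR), MRPL45 (0.46 ± 0.08), MRPL55 (-0.41 ± 0.14) and MRPS9 (0.40 ± 0.08). MRPL48 averaged 46.3 ± 4.72 CPM in cyclocreatine TF-1 cells and 36.5 ± 1.74 CPM in vehicle cells, and 30.3 ± 1.45 CPM in cyclocreatine UCSD-AML1 cells and 33.04 ± 2.91 CPM in vehicle cells. Between UT-7 and UCSD-AML1 they were MRPS6 (-0.65 ± 0.10, adjusted p = 2.08e-06 by edgeR), MRPS12 (-0.51 ± 0.09), MRPL55 (-0.50 ± 0.15) and MRPL14 (-0.38 ± 0.08). The call of MRPL55 between TF-1 and UCSD-AML1 was lost under 8 alternatives (adjusted p = 0.0569 to 0.136 by edgeR).

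The MRPS18 paralogs are versions of 1 bacterial protein, with MRPS18B and MRPS18C in the small subunit and MRPS18A in the large one. MRPS18B rose in TF-1 (0.26 ± 0.04) and stood at -0.09 ± 0.04 in UT-7 and -0.02 ± 0.04 in UCSD-AML1. MRPS18A had 0.16 ± 0.06 in TF-1 (adjusted p = 0.0331 by edgeR), with overlapping groups, and its call was lost under 10 alternatives (adjusted p = 0.054 to 0.294). In TF-1 without replicate 1 the changes were 0.20 for MRPS18B and 0.10 for MRPS18A. MRPS18C was called in 0 of the lines (0.09 in TF-1, 0.10 in UT-7, and for UCSD-AML1 0.08). MRPS30 fell in UT-7 alone among the calls, with 58.9, 60.4, 61.3 and 60.5 CPM in the 4 cyclocreatine libraries of UT-7, against 76.5, 77.2, 73.7 and 71.6 CPM in its 4 vehicle libraries (log2 fold change -0.31 ± 0.05 (SE), adjusted p = 8.70e-06 by edgeR). MRPS36, which bears a ribosomal symbol but is a component of the 2-oxoglutarate dehydrogenase complex, had 0.21 ± 0.07 in TF-1 (adjusted p = 0.0167 by edgeR) and 0.02 ± 0.07 and 0.08 ± 0.08 in UT-7 and UCSD-AML1. Its TF-1 call was lost with library totals, with TF-1 fitted alone, without TF-1 vehicle replicate 3 and without TF-1 cyclocreatine replicate 4 (adjusted p = 0.0564 to 0.141 by edgeR), and without cyclocreatine replicate 1 the change was 0.22.

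Between vehicle groups the called differences were of larger size than the cyclocreatine changes, with a median size among called members of 0.45, 0.40 and 0.49 on the log2 scale between the 3 pairs of lines, against 0.26 for cyclocreatine in each line. TF-1 vehicle cells were higher than UT-7 vehicle cells for 25 members and lower for 35, beside 79.7% of all genes called, 41.0% higher and 38.7% lower. TF-1 was higher than UCSD-AML1 for 40 and lower for 24, beside 84.0% of all genes (40.6% higher, 43.3% lower), and UT-7 higher than UCSD-AML1 for 40 and lower for 23, beside 81.5% (40.0% higher, 41.5% lower). These comparisons share vehicle libraries. The directions of TF-1 against the others moved with the correction of a per-library trend: 16 higher and 49 lower with length and 17 and 49 with GC content against UT-7, and 24 and 31 with length and 26 and 35 with GC content against UCSD-AML1. Those corrections also moved the median of all genes, to -0.197 and -0.188 against UT-7, where it had been 0.011, and to -0.20 and -0.211 against UCSD-AML1, where it had been -0.046.

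MRPL4, whose bacterial counterpart lines the peptide tunnel, had 441, 461, 476 and 450.3 CPM in UT-7 vehicle cells, against 97.6, 96.9, 93.01 and 93.3 CPM in UCSD-AML1 vehicle cells (log2 difference 2.26 ± 0.06, adjusted p = 1.90e-27 by edgeR). TF-1 lay between, with 269, 283, 278 and 276 CPM, and above UCSD-AML1 by 1.54 ± 0.06. MRPS12 had 169, 155, 162 and 159.6 CPM in UT-7, against 34.6, 37.7, 33.7 and 33.6 CPM in UCSD-AML1 (2.21 ± 0.06, adjusted p = 4.35e-29 by edgeR). These were the widest gaps of any member, 4.80-fold and 4.62-fold, with no overlap.

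MRPL33 averaged 40.0 ± 2.603 CPM in TF-1 vehicle cells and 14.02 ± 0.515 CPM in UT-7 vehicle cells (1.51 ± 0.08), and was lower in UT-7 than in UCSD-AML1 (log2 difference -1.18 ± 0.08). MRPS16 (1.06 ± 0.04) and MRPS5 (1.06 ± 0.05) were also higher in TF-1 than in UT-7, and MRPL24 (-1.31 ± 0.06), MRPS12 (-1.26 ± 0.06) and MRPS14 (-1.01 ± 0.06) lower. Against UCSD-AML1, TF-1 was higher for MRPS33 (1.15 ± 0.09) and MRPS6 (1.13 ± 0.07) and lower for MRPS11 (-0.73 ± 0.07), MRPS14 (-0.71 ± 0.06) and MRPL53 (-0.62 ± 0.12). UT-7 was higher than UCSD-AML1 for MRPS33 (1.19 ± 0.09) and lower for MRPS25 (-1.07 ± 0.06) and MRPL54 (-0.78 ± 0.10). All of these 15 comparisons passed the test with groups apart.

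Levels of different members can be set beside each other only per length of transcript. In CPM per kb, the mean over all libraries ran from 1.36 for MRPS24 to 201 for MRPL4, with a median of 42.0. MRPL4 stood at 194 ± 4.17 CPM per kb in TF-1 vehicle cells, 321 ± 10.6 in UT-7 and 66.9 ± 1.68 in UCSD-AML1 (SD, n = 4). The mitochondria-specific MRPL37 came next, at 167 ± 4.91, 206 ± 6.51 and 127 ± 1.75 CPM per kb in these lines. MRPL12 had 125 ± 4.56, 114 ± 1.52 and 112 ± 1.89, and MRPL20 118 ± 3.203, 158 ± 4.71 and 95.1 ± 1.66 CPM per kb. MRPL37 led in UCSD-AML1. After MRPS24, the lowest means over all libraries were those of MRPS17 (7.34 CPM per kb), MRPS33 (7.52) and MRPS23 (9.89). Before division by length MRPS23 averaged 55.6 CPM, and its low rank rests on an annotated median length of 5621 nt. Which transcripts the cells made was not tested.

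**Figure D5:**
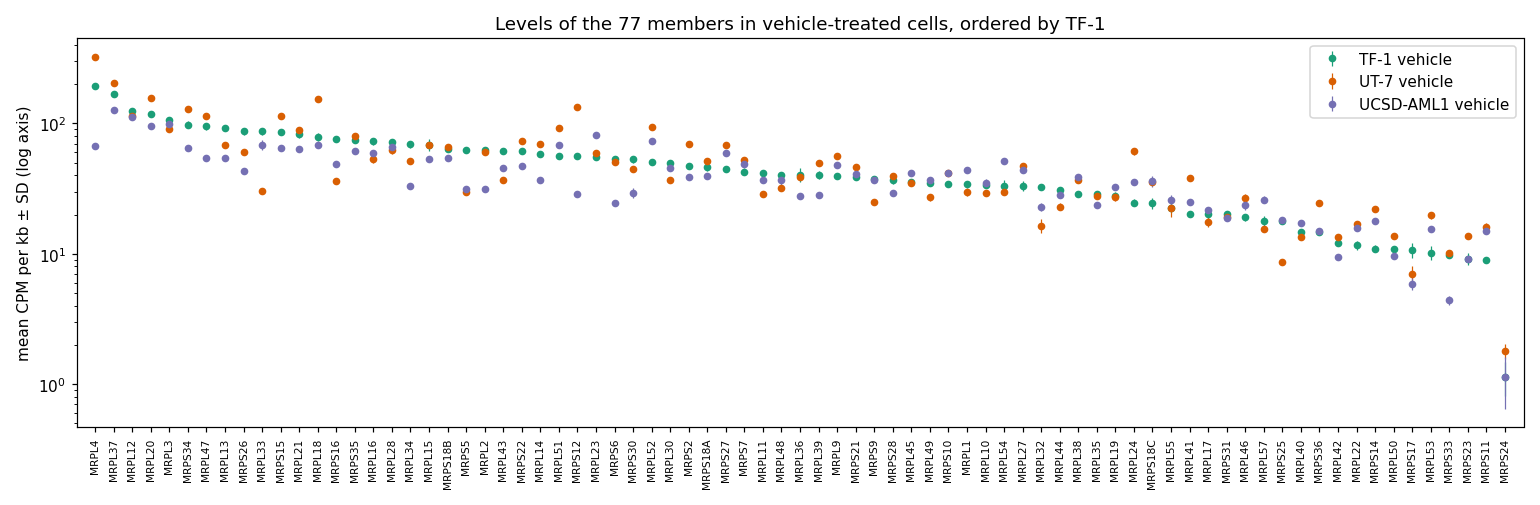
Mean level in CPM per kb of transcript (log axis) with the SD of 4 vehicle libraries for the 77 members in each line, ordered by TF-1. MRPL4 leads in TF-1 and UT-7, MRPL37 in UCSD-AML1, and MRPS24 is last in each line.

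The members are short genes, with a median transcript length of 1264 nt against 2697 nt for all genes with a length, and a GC content of 48.9% against 49.8%. Across the 77 members, Pearson's r of the change with log2 length was -0.24 for TF-1, -0.18 for UT-7 and -0.35 for UCSD-AML1 (-0.13, -0.02 and -0.12 over all genes). With GC content it was 0.13, 0.10 and 0.43 (0.03, 0.03 and 0.19 over all genes). The changes of the members in TF-1 and UT-7 had r = 0.78, in TF-1 and UCSD-AML1 0.58 and in UT-7 and UCSD-AML1 0.58, where all genes had 0.41, 0.31 and 0.31. Without TF-1 cyclocreatine replicate 1 the members had r = 0.80 with UT-7 and 0.57 with UCSD-AML1 (0.40 and 0.29 over all genes), -0.13 with length and 0.00 with GC content (-0.07 and -0.02 over all genes). These are descriptions across genes, which share libraries and length and GC composition, and genes are not independent replicates.

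Cytosolic ribosomal protein genes, which encode the other ribosome of the cell, rose for 77 of 77 tested in TF-1 (middle log2 fold change 0.57) and 74 of 77 in UT-7 (0.31) and UCSD-AML1 (0.26), with 0 lower in any line. Without TF-1 cyclocreatine replicate 1 they were higher for 76 with a median of 0.48. Mitochondrial ribosomal proteins under other symbols had 4 higher and 1 lower of 6 in TF-1, 1 and 3 in UT-7 and 3 and 2 in UCSD-AML1, and 4 and 1 in TF-1 without replicate 1. The shares of all genes, for this list and the next 3, were 26.7% higher and 29.3% lower in TF-1, 22.5% and 23.3% in UT-7, and 19.1% and 21.3% in UCSD-AML1. No list was tested against another or against all genes. PTCD3, a pentatricopeptide protein of the small subunit, fell in each line (-0.35 in TF-1, -0.39 in UT-7, and for UCSD-AML1 -0.19), and ICT1, a release factor built into the large subunit, rose in each (0.47 in TF-1, 0.27 in UT-7, and for UCSD-AML1 0.26). DAP3, a GTP-binding small subunit protein, fell in UT-7 (-0.18) and UCSD-AML1 (-0.16), with 0.04 in TF-1 (adjusted p = 0.43 by edgeR). CHCHD1, a small subunit protein, rose in TF-1 (0.20) and fell in UT-7 (-0.30), with -0.01 in UCSD-AML1 (adjusted p = 0.975). AURKAIP1 and GADD45GIP1, of the small and the large subunit, rose in TF-1 (0.34 and 0.23) and UCSD-AML1 (0.35 and 0.30), with 0.17 and -0.03 in UT-7 (adjusted p = 0.0849 and 0.781). The TF-1 changes without replicate 1 were -0.32 for PTCD3, 0.32 for ICT1, 0.16 for CHCHD1, 0.21 for AURKAIP1 and 0.10 for GADD45GIP1.

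Of 25 assembly and rRNA factors, 15 were higher and 1 lower in TF-1, 7 and 4 in UT-7, 9 and 1 in UCSD-AML1, and 14 and 1 in TF-1 without replicate 1. The GTPase MTG1, which helps the large subunit mature, rose by 0.73 in TF-1, 0.43 in UT-7, and by 0.44 in UCSD-AML1, and C1QBP, a matrix protein that binds mitochondrial RNA, by 0.46, 0.25 and 0.25. NOA1, a GTPase of small subunit assembly, had 0.56 in TF-1, 0.17 in UT-7, and for UCSD-AML1 0.23, each called. METTL17, a methyltransferase-like factor of small subunit assembly, rose in UCSD-AML1 (0.31), with 0.10 in TF-1 (adjusted p = 0.127 by edgeR) and -0.12 in UT-7 (adjusted p = 0.0547). LETM1, an inner membrane protein, fell in TF-1 (-0.18) and UT-7 (-0.24), with -0.07 in UCSD-AML1 (adjusted p = 0.232). Without replicate 1 the TF-1 changes were 0.62 for MTG1, 0.41 for C1QBP, 0.54 for NOA1 and -0.18 for LETM1. Of 15 translation factors, 6 were higher and 2 lower in TF-1, 3 and 7 in UT-7, 4 and 2 in UCSD-AML1, and 5 and 4 in TF-1 without replicate 1. OXA1L, which inserts the nascent proteins into the inner membrane, rose in each line (0.43 in TF-1, 0.35 in UT-7, and for UCSD-AML1 0.40), as did the recycling factor MRRF (0.43 in TF-1, 0.27 in UT-7, and for UCSD-AML1 0.29). GUF1, an elongation factor of the LepA family, fell in each (-0.21 in TF-1, -0.48 in UT-7, and for UCSD-AML1 -0.41). MTFMT, which formylates the initiator tRNA, rose in each (0.41 in TF-1, 0.32 in UT-7, and for UCSD-AML1 0.23). The elongation factor GFM1 fell in UT-7 (-0.25) and UCSD-AML1 (-0.11), with -0.03 in TF-1 (adjusted p = 0.543 by edgeR). In TF-1 without replicate 1 the changes were 0.39 for OXA1L, 0.41 for MRRF, -0.12 for GUF1 and 0.32 for MTFMT.

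Of 14 regulators of mitochondrial transcription and biogenesis, 5 were higher and 4 lower in TF-1, 3 and 5 in UT-7, 2 and 5 in UCSD-AML1, and 4 and 3 in TF-1 without replicate 1. TFB2M, which melts mitochondrial promoters, fell in each line (-0.50 in TF-1, -0.66 in UT-7, and for UCSD-AML1 -0.43), as did MYC (-0.20 in TF-1, -0.68 in UT-7, and for UCSD-AML1 -0.29) and ESRRA (-0.22 in TF-1, -0.65 in UT-7, and for UCSD-AML1 -0.26). TFAM, which packages mitochondrial DNA, rose in TF-1 (0.43), and had -0.11 in UT-7 (adjusted p = 0.103 by edgeR) and -0.03 in UCSD-AML1 (adjusted p = 0.686). GABPA, an ETS factor of the CCGGAAG kind, rose in TF-1 and UT-7 and fell in UCSD-AML1 (0.37 in TF-1, 0.43 in UT-7, and for UCSD-AML1 -0.18). GABPB1, a partner subunit of GABPA, rose in UT-7 (0.50), with 0.08 in TF-1 (adjusted p = 0.13 by edgeR) and -0.09 in UCSD-AML1 (adjusted p = 0.177). Their part in the members' changes was not tested. LRPPRC, which stabilises mitochondrial mRNAs, fell in UT-7 (-0.14) and UCSD-AML1 (-0.30), with -0.05 in TF-1 (adjusted p = 0.253). The TF-1 changes without replicate 1 were -0.47 for TFB2M, -0.22 for MYC, -0.25 for ESRRA, 0.51 for TFAM and 0.41 for GABPA.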

How the data were processed

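RNA of 24 libraries was sequenced on an Illumina HiSeq, per the series' design text. For each library the authors deposited 1 file of counts, which are whole and not normalized, by RefSeq gene symbol. FastQC, TopHat2 and RSEM, with GRCh37 and hg19 as builds, are listed in the submitters' processing notes. Their versions, order and roles, and strand use, were not stated. Each library took its group from its labels, with none pooled.

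The counts were fitted in R 4.3.3 with edgeR 4.0.16 (limma 3.58.1 for voom). filterByExpr (smallest count 10, smallest total 15) kept 14588 genes with at least 99.93% of each library's counts, and TMM scaled the libraries. All 24 libraries entered 1 group-means quasi-likelihood model (18 residual degrees of freedom, median biological coefficient of variation 0.0578), and Benjamini-Hochberg adjusted p under 0.05 over all genes made a call, in both directions. The script was tested on simulated data. CPM used TMM-scaled totals. Library totals were used for the 1 CPM threshold, the range of MRPS24 beside it, the maxima of the pseudogenes and the levels of single marker genes. An approximate SE was had by dividing each log2 fold change by the root of its F statistic. Replicate pairs differed by chi-square per degree of freedom of 1.29 to 19.3, so all libraries were counted as separate. Same-numbered libraries had correlations of -0.267 to 0.114, so the numbers were not taken as pairs in the main fit. Such correlations cannot exclude a weak pairing.

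Transcript lengths and GC content are medians over a symbol's GENCODE 29 transcripts (RefSeq-matched ones where there are any), matched by symbol for all 77 members, and used without coordinates. Upstream sequences are RefSeq's, matched by symbol for 68. Python 3.11.15, pandas 2.3.3, numpy 2.4.6 and matplotlib 3.10.9 made tables and plots.

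The members and lists were chosen with earlier results of these data known. Named were, per line, the 6 called members per direction with the largest change and groups apart, those called alike in all 3 lines, the 4 largest differences between lines, the 3 largest per direction between vehicle groups, the 4 highest and 4 lowest per kb, those at the threshold, and MRPL12, MRPS12, MRPS18A, MRPS18B, MRPS18C, MRPS30 and MRPS36. Of other lists, the 3 genes with the smallest p in each line were taken. MRPL41, MRPS10, MRPL13, MRPL2 and others named outside this rule were chosen after their values were seen. Alternatives were library totals, DESeq2 1.42.0 size factors and its Wald test, limma-voom, other filters, lines fitted alone, a replicate block, length and GC trends removed, and each library left out.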

Additional observations from a re-analysis of the deposited data

Results flagged for a closer look

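In a group of 4 libraries, a value was singled out where its gap to the nearest other library took up more of the group's range than Dixon's critical value at 95% allows. This held in 12 of 282 groups of named members and sums (4.26%), and chance alone gives about 1 in 20. MRPL11 had 73.5 CPM in UCSD-AML1 cyclocreatine replicate 3, against 66.2 to 67.1 CPM in the other 3 libraries. MRPL20 had 63.8 CPM in UCSD-AML1 vehicle replicate 1, against 61.6 to 61.9 CPM in the other 3 libraries. MRPL24 had 59.2 CPM in UT-7 vehicle replicate 2, against 51.6 to 52.5 CPM in the other 3 libraries. MRPL30 had 124 CPM in TF-1 vehicle replicate 4, against 132 to 134 CPM in the other 3 libraries. MRPL37 had 268 CPM in TF-1 vehicle replicate 2, against 251 to 254 CPM in the other 3 libraries. MRPL45 had 62.3 CPM in UT-7 cyclocreatine replicate 3, against 65.4 to 65.8 CPM in the other 3 libraries. MRPL9 had 79.7 CPM in UCSD-AML1 cyclocreatine replicate 4, against 71.9 to 73.05 CPM in the other 3 libraries. MRPS11 had 35.2 CPM in UT-7 cyclocreatine replicate 3, against 37.8 to 37.9 CPM in the other 3 libraries. MRPS18A had 42.9 CPM in UT-7 cyclocreatine replicate 2, against 48.6 to 48.8 CPM in the other 3 libraries. MRPS34 had 67.5 CPM in UCSD-AML1 vehicle replicate 1, against 65.9 to 66.2 CPM in the other 3 libraries. MRPS36 had 33.9 CPM in UT-7 cyclocreatine replicate 4, against 30.9 to 31.2 CPM in the other 3 libraries. MRPS5 had 49.4 CPM in UT-7 cyclocreatine replicate 3, against 54.6 to 54.9 CPM in the other 3 libraries.

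A second kind is a cyclocreatine change that differed between lines by its own test (edgeR's quasi-likelihood test of the difference). In TF-1 minus UT-7 these were MRPS17 (0.58), MRPS31 (0.47), MRPL45 (0.46) and MRPS12 (0.45). In TF-1 minus UCSD-AML1 they were MRPL48 (0.47), MRPL45 (0.46), MRPL55 (-0.41) and MRPS9 (0.40). In UT-7 minus UCSD-AML1 they were MRPS6 (-0.65), MRPS12 (-0.51), MRPL55 (-0.50) and MRPL14 (-0.38). Without TF-1 cyclocreatine replicate 1 the TF-1 differences were 0.54, 0.42, 0.37 and 0.34 against UT-7, and 0.40, 0.37, -0.52 and 0.37 against UCSD-AML1. MRPS6 and MRPS12 share exon bases with SLC5A3 and SARS2, and MRPS31 has a pseudogene copy, and the part of these in the differences was not tested.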

How the results depend on the processing

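Of 308 values that alternatives gave for 14 counts of members, 301 were within 1.5 times the reported count. For differences between lines and between vehicle groups these are totals over both directions, and the report gives the splits that move. The exceptions were the members lower in UCSD-AML1 (9), of which 3 were called with the GC trend removed, the difference between TF-1 and UCSD-AML1 (24), 37 with the length trend removed, that between UT-7 and UCSD-AML1 (18), 31 with these lines fitted alone, and the members lower in all 3 lines (1), 2 with library totals and 0 to 2 when a library was left out (0 without TF-1 cyclocreatine replicate 4, 2 without TF-1 cyclocreatine replicate 1 or UCSD-AML1 vehicle replicate 2). The causes were not tested. The summed level in UT-7 had a log2 ratio of -0.055 with library totals, against -0.017, and that in TF-1 0.126, against 0.207. By direction, the differences between TF-1 and UCSD-AML1 had 20 higher members, 32 with the length trend removed, and 4 lower, 1 to 5 when a library was left out, with 2 when these lines were fitted alone. Those between TF-1 and UT-7 had 1 lower, 0 to 2 over the alternatives, and those between UT-7 and UCSD-AML1 3 higher, 1 with the GC trend removed.

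The numbers do not pair the samples. With the replicate block the members higher and lower were 46 and 6 in TF-1, 12 and 18 in UT-7 and 19 and 9 in UCSD-AML1, 9 and 1 in all 3 lines, differences between lines 34, 22 and 16, and between vehicle groups 59, 65 and 62.

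Of 80 called results of named members, 11 lost their call under at least 1 alternative, in 39 of 1536 values, and 0 changed sign. Among them were MRPL11 in UT-7 (adjusted p = 0.0503 to 0.0794 by edgeR under 7 alternatives), MRPL45 in UT-7 without vehicle replicate 4 (0.0618) and MRPL12 in UCSD-AML1 with the GC trend removed (0.191). MRPS24 was under 1 CPM in most libraries and shares 77% of its exon bases with URGCP-MRPS24. URGCP-MRPS24 itself had too few counts to be among the genes tested. Whether the low counts of MRPS24 reflect low expression or the handling of shared reads was not tested.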
